A study of Mus musculus with 26 samples.

Results

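The 10 genes described here encode the contractile apparatus of smooth muscle: the actins Acta2 and Actg2, the myosin heavy chain Myh11 and the myosin light chain kinase Mylk, the actin-binding proteins Tagln, Cnn1, Smtn, Lmod1 and Synpo2, and the intermediate filament protein Des. They were taken by symbol from the count tables, which hold 23337 genes, and all 10 were found and passed the filter on low counts in every comparison. The samples were poly(A) RNA-seq libraries from the epididymis (initial segment, IS, and caput) and from the testis of mice aged 3 months on a mixed C57Bl/6N and 129 background. ArKI males carry a germline knock-in of point mutations that remove SUMOylation sites from a protein. WT males were the controls, with 5 ArKI and 5 WT samples of the IS, 5 and 5 of the caput, and 3 and 3 of the testis, each from whole tissue and with no treatment. The mutation was made by gene targeting in hybrid embryonic stem cells and is present in all tissues, so that effects in smooth muscle cells and effects reaching them from other cells cannot be told apart.

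In smooth muscle, myosin filaments pull on filaments of alpha and gamma smooth muscle actin when the kinase encoded by Mylk phosphorylates the myosin light chain in response to calcium and calmodulin. Calponin, transgelin, smoothelin and leiomodin bind, stabilise or nucleate the actin filaments, and desmin links the contractile units to each other and to the cell surface. In the epididymis, layers of smooth muscle surround the duct and move sperm along it, and in the testis contractile peritubular cells and vessel walls hold these proteins. Many of these genes are known targets of serum response factor (SRF) and its coactivator myocardin, which act through a DNA motif called the CArG box.

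The actins are shown first, because reads of near-identical genes can be counted for the wrong one. The coding sequences of Acta2 (1134 bases) and Actg2 (1131 bases) differed at 183 of 1131 aligned bases when the 3 extra bases of Acta2 were set at its start, an identity of 83.8%. None of the 1082 windows of 50 bases, the read length, was identical in both, although some differed at only 3 bases. The stretch in which they are most alike, at coding bases 928 to 987 of Acta2 and 925 to 984 of Actg2, is printed here from the GRCm38 transcripts, with the 4 bases that differ in capitals.
Acta2: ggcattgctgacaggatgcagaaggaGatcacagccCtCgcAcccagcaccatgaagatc
Actg2: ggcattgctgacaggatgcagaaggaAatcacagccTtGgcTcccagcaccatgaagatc
Along the longest annotated coding transcript of each gene, 0.352% of the 50-base windows of Acta2 also occurred in transcripts of Actg1, the cytoplasmic gamma actin gene, or of 5 other loci, 0.400% of those of Myh11 occurred in the non-muscle myosins Myh9 or Myh10, 0.0546% of those of Synpo2 occurred elsewhere, and none of those of the other 7 genes did. Exons of Mylk, Tagln, Smtn and Des overlapped annotated exons on the opposite strand, among them those of Pcsk7 beside Tagln, and as the strand setting of the counting is not given, reads from such partners cannot be told apart.

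The 10 genes are spread over 7 chromosomes of GRCm38. Acta2 lies at chr19:34240336-34255585 on the minus strand, Actg2 at chr6:83512909-83536251 on the minus strand, Myh11 at chr16:14194527-14292188 on the minus strand, and Mylk at chr16:34745199-35002436 on the plus strand. The actin-binding genes are Tagln at chr9:45929628-45936058 (minus), Cnn1 at chr9:22099221-22109221 (plus), Smtn at chr11:3517522-3539292 (minus), Lmod1 at chr1:135324813-135368065 (plus) and Synpo2 at chr3:123076519-123236168 (minus). Des lies at chr1:75360292-75368579 on the plus strand. The counts cover whole genes, so they do not separate exons or isoforms.

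RefSeq promoters of GRCm38.p6, from 250 bases before to 50 after an annotated transcript start, were at hand for 7 of the 10 genes (Acta2, Cnn1, Des, Lmod1, Synpo2, Smtn and Mylk). For Acta2, Mylk, Cnn1 and Synpo2 the start used lies inside the gene interval given above. Because the genes are compared together below, these windows were searched on both strands for the CArG box. An exact match was in 0 of the 7 windows and in 1.63% of all 32851 promoters, and a match with at most 1 departure was in 2 of the 7 (28.6%) and in 21.1% of all. The members with such a match were Acta2, with the matches starting 84 and 34 bases before the annotated start, and Lmod1, with the matches starting 189 and 164 bases before it. Both promoters are printed on the gene's own strand with the CArG-like matches in capitals. They are descriptions of letters and were not tested as binding sites.
Acta2, chr19:34255324-34255623, minus strand: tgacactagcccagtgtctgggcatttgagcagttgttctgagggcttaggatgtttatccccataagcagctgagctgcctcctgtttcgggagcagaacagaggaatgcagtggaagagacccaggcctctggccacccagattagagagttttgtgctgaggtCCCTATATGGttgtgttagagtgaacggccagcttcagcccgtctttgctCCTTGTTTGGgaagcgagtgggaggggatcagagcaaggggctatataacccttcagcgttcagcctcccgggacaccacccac
Lmod1, chr1:135324563-135324862, plus strand: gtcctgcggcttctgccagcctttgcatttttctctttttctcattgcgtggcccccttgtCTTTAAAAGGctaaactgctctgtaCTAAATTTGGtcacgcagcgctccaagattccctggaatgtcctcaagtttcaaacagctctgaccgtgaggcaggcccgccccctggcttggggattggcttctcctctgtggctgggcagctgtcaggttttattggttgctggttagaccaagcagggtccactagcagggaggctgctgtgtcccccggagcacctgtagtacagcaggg

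The libraries held 4125768 to 11913469 counts in the epididymis and 14077013 to 21376604 in the testis, and the shallowest was caput ArKI replicate 2. The summed level of 6 principal cell genes was 75879 to 84149 CPM (counts scaled to library size, with TMM factors within each tissue) in the WT IS and 57519 to 78749.6 in the WT caput, against 250.1 to 279.8 in the WT testis, and that of 4 spermatid genes was 10567 to 13247 CPM in the WT testis. The testis libraries come from another sequencing run than the epididymal ones, and in comparisons between them the run cannot be told apart from the tissue.

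In WT mice, Actg2 stood far above the other members in the IS. Per length of exon, its level there was 1870.1 ± 57.7 reads per kilobase of exon scaled to library size (RPKM, mean ± SD, n = 5), followed by Acta2 at 93.9 ± 5.61, Tagln at 45.0 ± 6.76, Mylk at 37.1 ± 1.40 and Myh11 at 23.4 ± 0.575 RPKM. Des (13.9 ± 1.90), Cnn1 (12.7 ± 1.21), Smtn (6.96 ± 1.05), Lmod1 (2.69 ± 0.589) and Synpo2 (0.671 ± 0.161) completed the order. The samples overlapped between Tagln and Mylk and between Des and Cnn1, and no other neighbours in this order overlapped. The ratio of Actg2 to Acta2 per length averaged 19.98 (range 17.8 to 21.9) in the WT IS, 0.506 (range 0.174 to 0.913) in the WT caput and 7.75 (range 7.47 to 8.10) in the WT testis, so the gamma actin gene exceeded the alpha actin gene in every WT sample of the IS and testis and in none of the caput.

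In the WT caput Acta2 was the highest member at 144 ± 13.5 RPKM, and Actg2 was next at 72.7 ± 49.3 RPKM with a wide spread, so that its samples overlapped those of Acta2 above it and of Tagln (53.0 ± 4.67) below it. Myh11 followed at 38.9 ± 2.42, Cnn1 at 20.1 ± 2.34, Mylk at 17.0 ± 1.32 and Des at 14.9 ± 2.71 RPKM, with overlaps between Cnn1 and Mylk and between Mylk and Des. In the WT testis (n = 3) Actg2 was at 204 ± 6.69 RPKM, Acta2 at 26.3 ± 0.300, Mylk at 7.68 ± 0.20, Tagln at 7.29 ± 0.404 and Myh11 at 5.62 ± 0.183 RPKM, and the other 5 were below 3 RPKM. Smtn, Lmod1 and Synpo2, in that order, were the lowest members of both epididymal segments, and Synpo2 was the lowest in all 3 tissues.

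**Figure D1:**
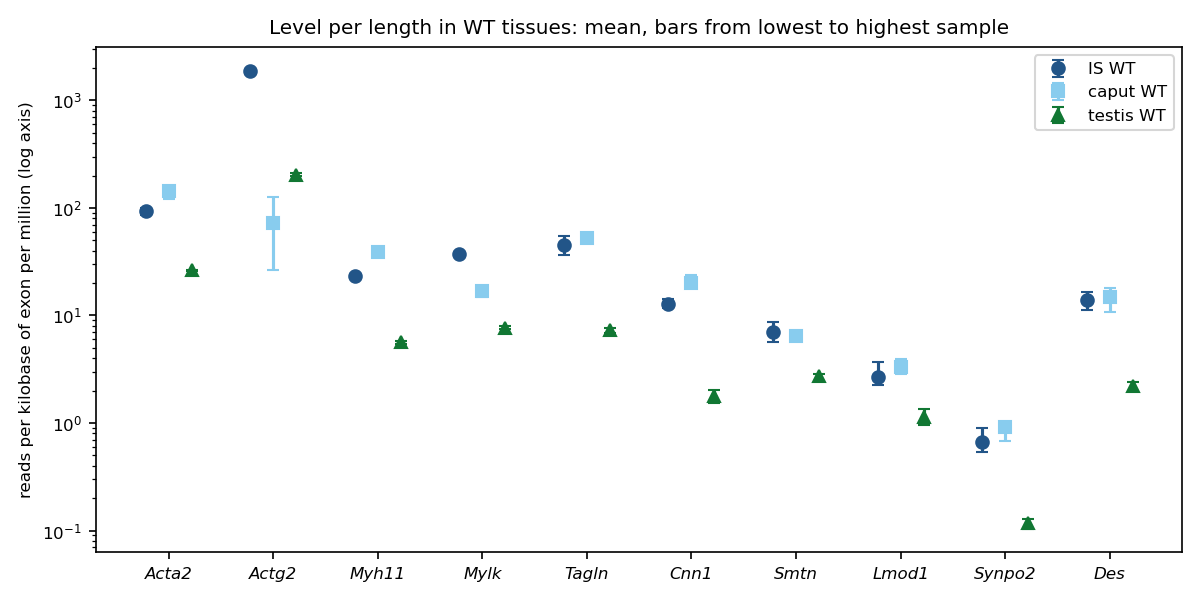
Level per length of the 10 genes in WT tissues, in RPKM on a log axis, with symbols for the mean and bars from the lowest to the highest sample (5 of the IS, 5 of the caput, 3 of the testis). Actg2 is at 1774 or more in every WT IS sample, whereas the highest value of any of the other 9 genes is 155, for Acta2 in the caput.

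The comparison of ArKI with WT in the IS asks whether the contractile genes differ with the knock-in. Of the 10 members, 9 fell in the ArKI IS, 0 rose, and Actg2 did not pass the test, where 14.6% of the 13434 genes tested fell and 15.0% rose. The levels of the 9 genes that fell were 39.2% (Synpo2) to 77.8% (Mylk) of those in WT, and the median log2 fold change over all 10 members was -0.96, against 0 over all genes tested. For each of the 9, every ArKI sample lay below every WT sample, which held for 10.5% of the genes tested. These are libraries of whole tissue, in which fewer smooth muscle cells, a larger share of other cells and less RNA per cell cannot be told apart. The paper stained sections of the IS for smooth muscle actin and saw no apparent change in how the muscle layer was built. That staining shows protein and layout, not the level of RNA.

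The actins did not move together. Acta2, the alpha actin of smooth muscle, was at 231, 220.1, 227, 211 and 200.5 CPM in the 5 WT IS samples and at 166, 114, 92.1, 109.6 and 89.3 CPM in the 5 ArKI IS samples. The highest ArKI sample, replicate 1, was still below the lowest WT sample, and the gene fell, with a log2 fold change of -0.93 (SE 0.161, adjusted p = 0.0025) in the quasi-likelihood test of edgeR, with p values adjusted by Benjamini-Hochberg over all genes as throughout. Actg2, the gamma actin of enteric and other smooth muscle, was at 2913, 3139, 3069, 3147 and 3119 CPM in WT and 3039.7, 2597, 3003, 3055 and 2709.9 in ArKI. Here 2 ArKI samples lay below and 3 lay within the range of the WT samples, and the log2 difference was -0.10 (SE 0.0510, adjusted p = 0.18). As the other members were lower, Actg2 made up 81.0% of the scaled counts of the 10 members, not corrected for length, in the ArKI IS and 73.9% in the WT IS, and the summed level of the other 9 was 629.7 to 782 CPM in ArKI against 1059 to 1140.4 in WT.

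Myh11, the motor of the smooth muscle filament, was at 186, 194, 183, 189.7 and 188 CPM in the WT IS and at 132, 93.4, 68.2, 84.7 and 81.3 CPM in the ArKI IS. The WT samples were tightly grouped and the ArKI samples were more spread, with replicate 1 the highest, and the gene fell, with a log2 fold change of -1.03 (SE 0.152, adjusted p = 0.00097). Mylk was at 424, 441, 445, 429 and 469 CPM in WT and 325, 313, 362, 377 and 343 CPM in ArKI. The groups did not overlap here either, but the change was the smallest among the 9, at -0.36 (SE 0.0512, adjusted p = 2.3e-05).

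The actin-binding members fell by a wider range of sizes. Synpo2, an actin-bundling protein of the Z-disc and dense bodies, had the lowest share of its WT level, with 10.7, 7.42, 8.47, 12.5 and 7.39 CPM in WT and 4.11, 3.38, 3.60, 3.24 and 3.64 CPM in ArKI and a log2 fold change of -1.35 (SE 0.177, adjusted p = 9.7e-06). Cnn1, calponin, which restrains the myosin ATPase, was at 34.0, 34.4, 40.9, 40.0 and 33.7 CPM in WT and 24.1, 15.8, 12.0, 18.9 and 14.4 CPM in ArKI. All ArKI samples of both genes were below all WT samples, and the log2 fold change of Cnn1 was -1.10 (SE 0.147, adjusted p = 9.6e-05).

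Tagln, the actin-crosslinking protein transgelin, was at 87.3, 92.7, 115, 99.4 and 77.5 CPM in WT and 63.0, 42.8, 38.4, 51.2 and 43.5 CPM in ArKI, a log2 fold change of -0.98 (SE 0.149, adjusted p = 0.00094). Lmod1, a nucleator of actin filaments, was at 9.57, 9.36, 15.5, 10.6 and 11.0 CPM in WT and 7.42, 6.20, 4.47, 5.29 and 4.82 in ArKI (-0.99, SE 0.169, adjusted p = 0.00018). WT replicate 3 was the highest WT sample of both genes, and the groups did not overlap. Smtn, a cytoskeletal protein of contractile smooth muscle, was at 30.6, 31.3, 39.9, 32.7 and 26.6 CPM in WT and 23.0, 17.9, 23.4, 20.1 and 21.7 CPM in ArKI, with a log2 fold change of -0.59 (SE 0.102, adjusted p = 0.0002). Des, the muscle intermediate filament, was at 51.8, 56.5, 65.4, 56.5 and 44.9 CPM in WT and 37.8, 35.1, 28.3, 29.5 and 28.3 CPM in ArKI, a log2 fold change of -0.79 (SE 0.105, adjusted p = 6e-05), again without overlap.

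**Figure D2:**
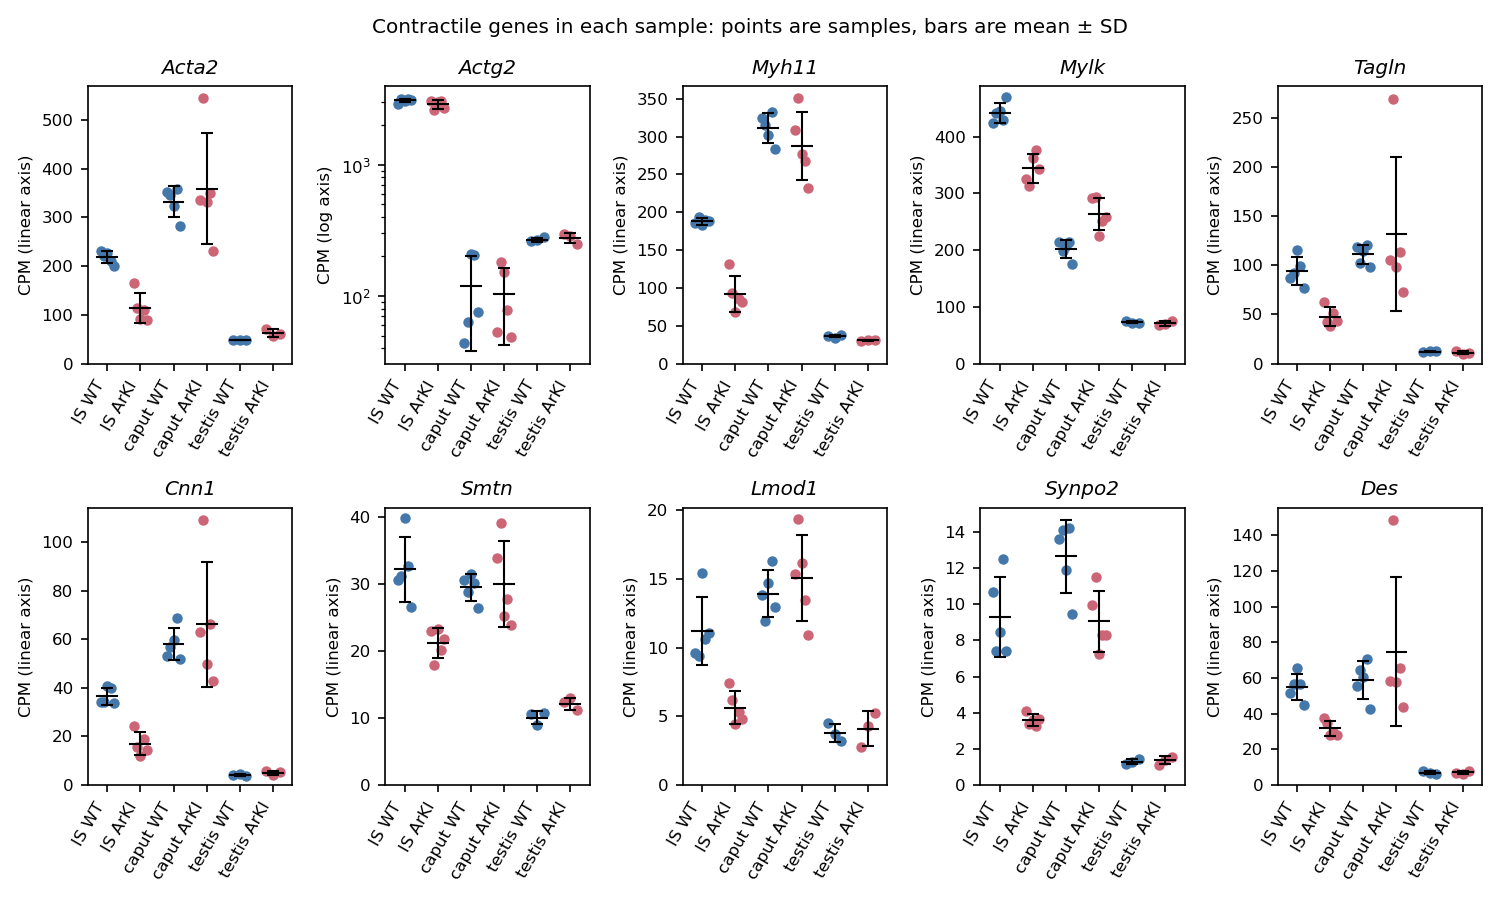
CPM of each of the 10 genes in all 26 samples, by tissue and genotype (WT blue, ArKI red), with the mean and SD in black. The axis is linear from 0 except for Actg2, which has a log axis. In the IS the ArKI samples lie below the WT samples for every gene but Actg2, and in the caput 1 ArKI sample stands high for Tagln (269.7), Des (149) and Cnn1 (109).

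Within the groups, several but not all members were high or low in the same libraries. ArKI replicate 1 was the highest ArKI IS sample for 7 of the 10 genes, and its summed level of the 9 members other than Actg2 was 782 CPM. WT replicate 3 was the highest WT IS sample for 5 genes and the lowest for 1, Myh11. WT replicate 5 was the lowest for 6 and the highest for 1, Mylk. The 9 genes fell in each of the 10 fits that left out a sample. With the thresholds of the study (FDR under 0.01 and a fold change over 2), 3 members passed (Myh11, Cnn1 and Synpo2), where 1.32% of the genes tested fell.

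The genes of the wider contractile apparatus fell in part in the IS. Of all genes tested there, 14.6% fell and 15.0% rose. Of 32 contractile partners, 15 fell, 5 rose and 12 did not pass the test (-0.15 as their median log2 fold change). Among those that fell were Itga8, an integrin subunit of smooth muscle (-1.67, SE 0.153, adjusted p = 6.5e-07), the tropomyosin gene Tpm2 (-1.05, SE 0.138, adjusted p = 0.00016), the regulatory light chain gene Myl9 (-0.92, SE 0.137, adjusted p = 0.00072) and the calponin Cnn2 (-0.80, SE 0.184, adjusted p = 0.009). Fhl1, a LIM protein of muscle, rose (1.02, SE 0.0537, adjusted p = 4e-11). The light chain Myl6 was at 0.04 and the actinin Actn1 at -0.06 on the log2 scale, and neither passed the test.

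Of the transcription factors of smooth muscle, 6 were tested in the IS and 3 fell. Myocd, the coactivator of SRF, was at 1.94, 2.05, 1.5, 1.56 and 2.29 CPM in the WT IS and 0.927, 1.13, 0.433, 0.341 and 0.352 CPM in ArKI (-1.54 as log2 fold change, SE 0.339, adjusted p = 0.0018), at a level near the limit that 3 counts give (0.307 to 0.515 CPM in the IS libraries). Mef2c (-0.49, SE 0.147, adjusted p = 0.016) and the myocardin-related factor Mkl2 (-0.15, SE 0.0510, adjusted p = 0.035) also fell, and Srf was at -0.25 (SE 0.128, adjusted p = 0.16).

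Of 15 tested receptors, channels and second messenger enzymes that govern contraction, 6 rose and 6 fell. Ednra, an endothelin receptor (-1.13, SE 0.173, adjusted p = 5.6e-05), and Pde5a, a cyclic GMP phosphodiesterase (-1.05, SE 0.160, adjusted p = 5.7e-05), were lower, whereas the potassium channel subunit Kcnmb1 (1.13, SE 0.221, adjusted p = 0.00068), the calcium release channel Ryr2 (0.99, SE 0.336, adjusted p = 0.032) and the guanylate cyclase subunit Gucy1a3 (0.97, SE 0.138, adjusted p = 2.3e-05) were higher. Of the 5 non-muscle actin and myosin genes, Actb (-0.43, SE 0.0588, adjusted p = 1.8e-05), Myh9 (-0.23, SE 0.0538, adjusted p = 0.0033) and Myh10 (-0.25, SE 0.0521, adjusted p = 0.0012) fell, and Tagln2 rose (0.16, SE 0.0501, adjusted p = 0.017).

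Markers of other cell types also differed between the genotypes in the IS. All 6 endothelial genes fell (median log2 -0.54), with a summed level of 141 to 175 CPM in WT and 95.4 to 116 in ArKI. Of 6 pericyte genes, 3 fell, among them Rgs5 (-1.29, SE 0.173, adjusted p = 1.2e-05), and their sum was 61.6 to 79.9 CPM in WT and 55.3 to 65.1 in ArKI. Of 6 fibroblast genes 4 rose and 1 fell, the largest change being that of Dpt (1.44, SE 0.0927, adjusted p = 7.4e-10), with a sum of 1081 to 1206 CPM in WT and 1178 to 1491 in ArKI. Macrophage (2 of 4) and basal cell genes (2 of 3) fell in part, with Csf1r at -0.54 and Krt5 at -0.66. Among 6 principal cell genes 3 fell and 1 rose, led by Crisp1 at -2.58 (SE 0.230, adjusted p = 5.8e-05). The part of these cell types in the levels of the contractile genes was not tested.

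Striated muscle genes were low. In the skeletal list Myh1, Myh2 and Myh4 were at 3 counts or fewer in every IS sample, while Acta1 was at 2.91, 2.40, 6.73, 2.70 and 1.87 CPM in the WT IS and 0.662, 0.141, 0.433, 0.853 and 0.352 CPM in the ArKI IS (-2.75, SE 0.454, adjusted p = 0.00021). Of the cardiac genes, Myh6 and Actc1 were at 3 counts or fewer in every IS and caput sample, Tnnt2 was at -0.70 and Tnni3 at 1.05 on the log2 scale in the IS. None of the 4 adipocyte genes passed the filter in the epididymis. Prm2, the 1 spermatid gene tested, fell in the IS (-4.11, SE 0.688, adjusted p = 0.0021). Among genes listed as markers of testicular somatic cells, Sox9 (0.32) and Wt1 (1.31) rose in the IS and neither of the 2 tested Leydig cell genes passed the test.

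**Figure D3:**
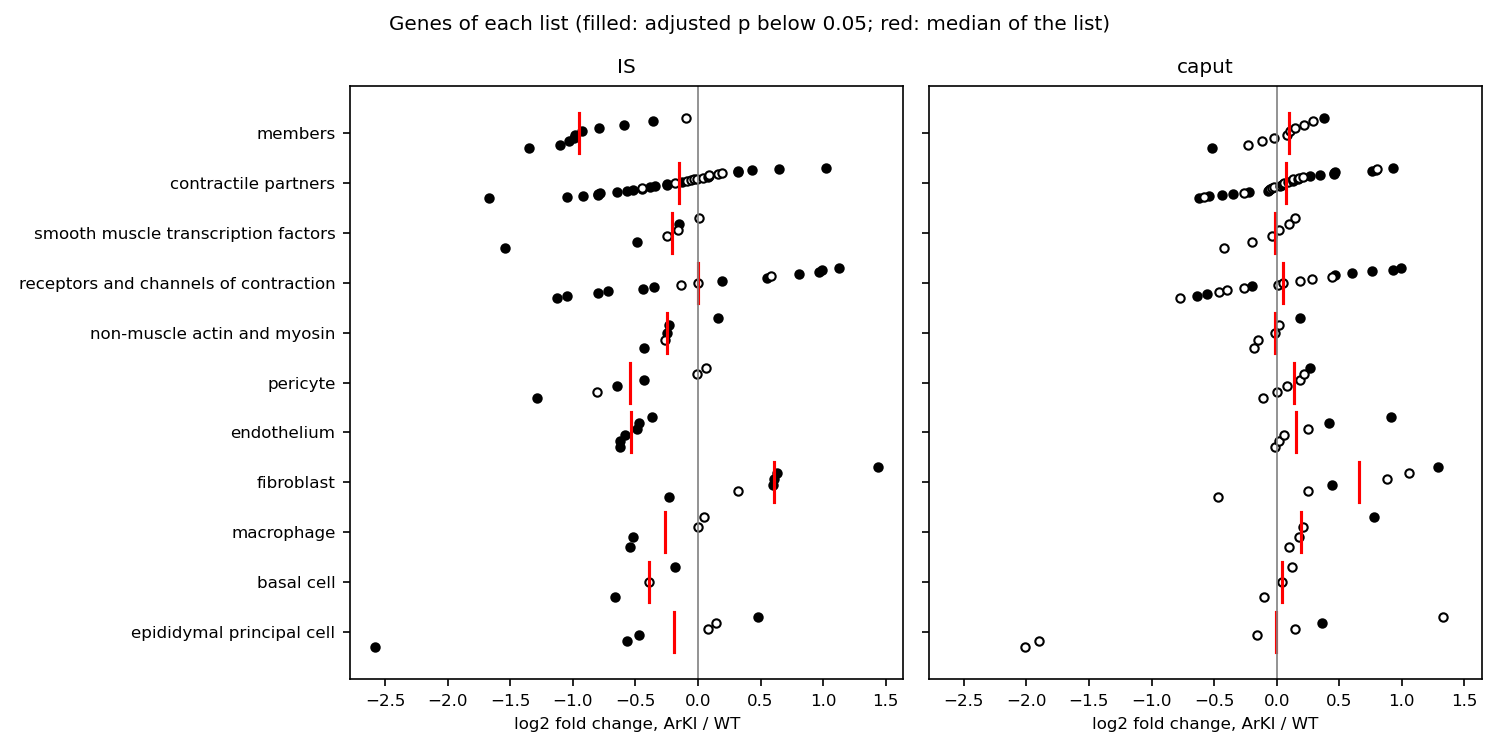
Log2 fold change of ArKI over WT for the genes of 11 lists in the IS and the caput, a point per gene, filled where the adjusted p was below 0.05, with the list median in red. The contractile members lie left of 0 in the IS (median -0.96) and on both sides of 0 in the caput (median 0.09), and the medians of the endothelial (-0.54) and fibroblast genes (0.60) lie on opposite sides of 0 in the IS.

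Genes of ciliated cells, a list added after their values had been seen, were higher in the ArKI IS. The summed level of Foxj1, Tmem212, Rsph1, Tekt1 and Ccdc39 was 51.2 to 75.1 CPM in WT and 83.5 to 263 CPM in ArKI, and all 5 rose (0.80 to 1.63 on the log2 scale). When the mean log2 level of the 5 ciliated genes was added to the fit as a covariate, 2 members fell (Mylk, -0.53, and Smtn, -0.77) in place of 9, and the median log2 fold change of the 10 was -0.71. In that fit 1417 genes in all were called in place of 3980, and the sums of ciliated genes did not overlap between the genotypes. The part of ciliated cells in the members' levels was otherwise not tested, and their level and the genotype cannot be told apart.

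**Figure D4:**
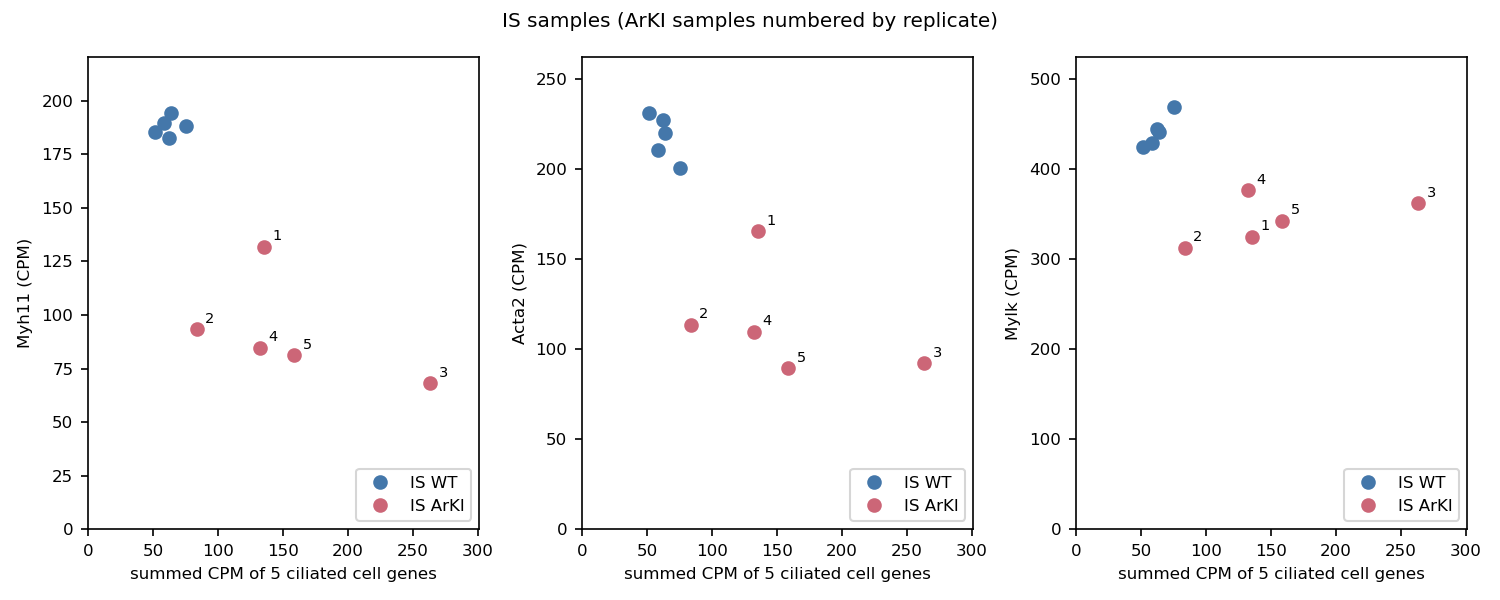
Myh11, Acta2 and Mylk (CPM) against the summed CPM of 5 ciliated cell genes in the 10 IS samples, WT in blue and ArKI in red. All ArKI points lie below and to the right of all WT points, with ciliated sums of 83.5 to 263 CPM against 51.2 to 75.1 CPM in WT.

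In the caput, most contractile genes did not differ detectably between the genotypes. Mylk rose, Synpo2 fell, and the other 8 members did not pass the test, where 13.7% of the 13726 genes tested rose and 14.0% fell. Mylk was at 214, 199, 207, 214 and 175 CPM in WT and 291, 293, 225, 251 and 258 CPM in ArKI. All ArKI samples were above all WT samples, as for 9.94% of the genes tested, and the log2 fold change was 0.38 (SE 0.0747, adjusted p = 0.00098). Synpo2 was at 13.6, 14.1, 11.9, 14.2 and 9.43 CPM in WT and 9.97, 11.5, 7.23, 8.30 and 8.30 CPM in ArKI, where the groups overlapped, with a log2 fold change of -0.52 (SE 0.139, adjusted p = 0.0091). Neither reached the fold change of 2 that the study asked for.

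The remaining members of the caput had log2 differences of -0.23 to 0.29. Myh11 was at 324, 315, 302, 333 and 283 CPM in WT and 309, 351, 277, 267 and 232 CPM in ArKI (-0.12, SE 0.0913, adjusted p = 0.38), and Acta2 at 353, 346, 324, 359 and 282 and 336, 545, 332, 350.4 and 231 CPM (0.11, SE 0.202, adjusted p = 0.76). For both genes the WT samples lay within the range of the ArKI samples. Replicate 2 of the ArKI caput was the highest ArKI sample for all 10 members, with Acta2 at 545, Tagln at 269.7, Cnn1 at 109 and Des at 149 CPM. In the other ArKI caput samples Tagln was at 73.1 to 113 and Des at 43.7 to 65.9 CPM, against WT ranges of 98.4 to 121 and 42.6 to 70.7.

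That library also held the highest sums of fibroblast genes (1934 CPM, against 840.1 to 1145 in the other ArKI caput samples), of macrophage genes (155 against 95.4 to 117) and of endothelial genes (96.5 against 69.2 to 77.5), and the lowest sum of principal cell genes. Without it, the median over the 10 members was -0.09 in place of 0.09, and Acta2 (-0.08), Tagln (-0.18), Cnn1 (-0.06) and Des (-0.06) changed sign without passing the test. Mylk (0.35, adjusted p = 0.0013) and Synpo2 (-0.59, adjusted p = 0.0022) still passed.

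Actg2 had the largest SE of the members in the caput. It was at 43.6, 62.9, 209.8, 205 and 75.6 CPM in WT and 53.5, 182, 154, 78.5 and 48.7 CPM in ArKI, with no separation of the genotypes (-0.23, SE 0.591, adjusted p = 0.83). The samples with the highest Actg2 were WT replicates 3 and 4 and ArKI replicates 2 and 3. Tecta, a gene at 214 to 352 CPM in the WT IS and chosen for display after its values had been seen, was at 0.102, 0.108, 8.98, 4.62 and 5.36 CPM in the WT caput samples. Both genes were highest in replicate 3 and lowest in replicates 1 and 2, while replicate 4 was above replicate 5 for Actg2 and below it for Tecta. Tecta was at 0.176 CPM or less in every ArKI caput sample, but it also fell in the ArKI IS, to 31.6 to 42.1 CPM (-2.95, SE 0.146, adjusted p = 4.3e-07), so its caput level cannot be compared between the genotypes as a measure of IS tissue. Ntsr1 (-2.52) and Myo16 (-1.56), listed with Tecta as IS genes after their values had been seen, fell in the ArKI IS as well. The part of tissue from the IS in these values was not tested.

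Beside the members, 8 of 32 contractile partners rose and 5 fell in the caput (median log2 0.08), where 13.7% of all genes tested rose and 14.0% fell. Fhl1 (0.93), Pdlim7 (0.79) and Pdlim3 (0.76) were among the partners that rose. The kinase Rock2 (-0.62) and the myosin phosphatase subunit Ppp1r12a (-0.54) were among those that fell. None of the 6 transcription factors tested passed, and Myocd was at -0.42 (SE 0.216, adjusted p = 0.17). Of 17 receptors and channels 5 rose, including Gucy1a3 (0.99) and Ryr2 (0.93), and 3 fell. Of the other cell types, 2 of 6 endothelial, 2 of 6 fibroblast, 1 of 6 pericyte and 1 of 4 macrophage genes rose, and none of these fell. Of the 3 ciliated cell genes tested 2 fell, Rsph1 (-0.56) and Ccdc39 (-1.05). All 4 spermatid genes fell, their sum being 113 to 190.3 CPM in WT and 5.41 to 26.5 in ArKI, and the part of this in the members' levels was not tested.

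Whether the effect of the mutation differed between the IS and the caput was tested as an interaction across the 20 epididymal samples. According to the methods both segments were collected from 5 mice of each genotype, and as it is not stated which samples share a mouse, the fit treated the 20 as independent. The log2 fold change of ArKI over WT was higher in the caput than in the IS for 8 of the 10 members, where 7.38% of the 14329 genes tested were so called and 7.77% were called in the other direction. The difference in log2 fold change was 1.24 (SE 0.306, adjusted p = 0.011) for Cnn1, 1.17 (SE 0.382, adjusted p = 0.048) for Tagln, 1.06 (SE 0.223, adjusted p = 0.0015) for Lmod1 and 1.03 (SE 0.264, adjusted p = 0.013) for Acta2. For Myh11 it was 0.91 (SE 0.184, adjusted p = 0.0024), for Synpo2 0.82 (SE 0.230, adjusted p = 0.015), for Mylk 0.74 (SE 0.0942, adjusted p = 4.4e-06) and for Smtn 0.57 (SE 0.164, adjusted p = 0.019). Des, at 1.06 (SE 0.369, adjusted p = 0.064), and Actg2, at -0.13 (SE 0.587, adjusted p = 0.93), did not pass. Des passed in 5 of 28 other fits, with adjusted p values of 0.015 to 0.11 over them. The call for Tagln was lost in 19 of 28 other fits, with adjusted p values of 0.01 to 0.084 over them, and without caput ArKI replicate 2 the difference passed for 9 members, with a median of 0.77. Of the 32 contractile partners 13 were called in the same direction as the members and 1 in the other. Genes of other cell types were called too. Of the endothelial genes 4 of 6 were called in that direction and 0 in the other (median difference 0.73), as were 2 of 4 macrophage genes (0.72), 2 of 6 pericyte genes (0.60) and 1 of 3 basal cell genes (0.29). None of the 6 fibroblast genes was called (-0.11), and of the 5 ciliated cell genes 3 were called in the other direction (-1.36). These 3, Rsph1, Tekt1 and Ccdc39, averaged 993.8, 386.1 and 284.8 CPM in the WT testis, so they are not particular to ciliated cells. The part of these cell types in the members' difference was not tested.

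**Figure D5:**
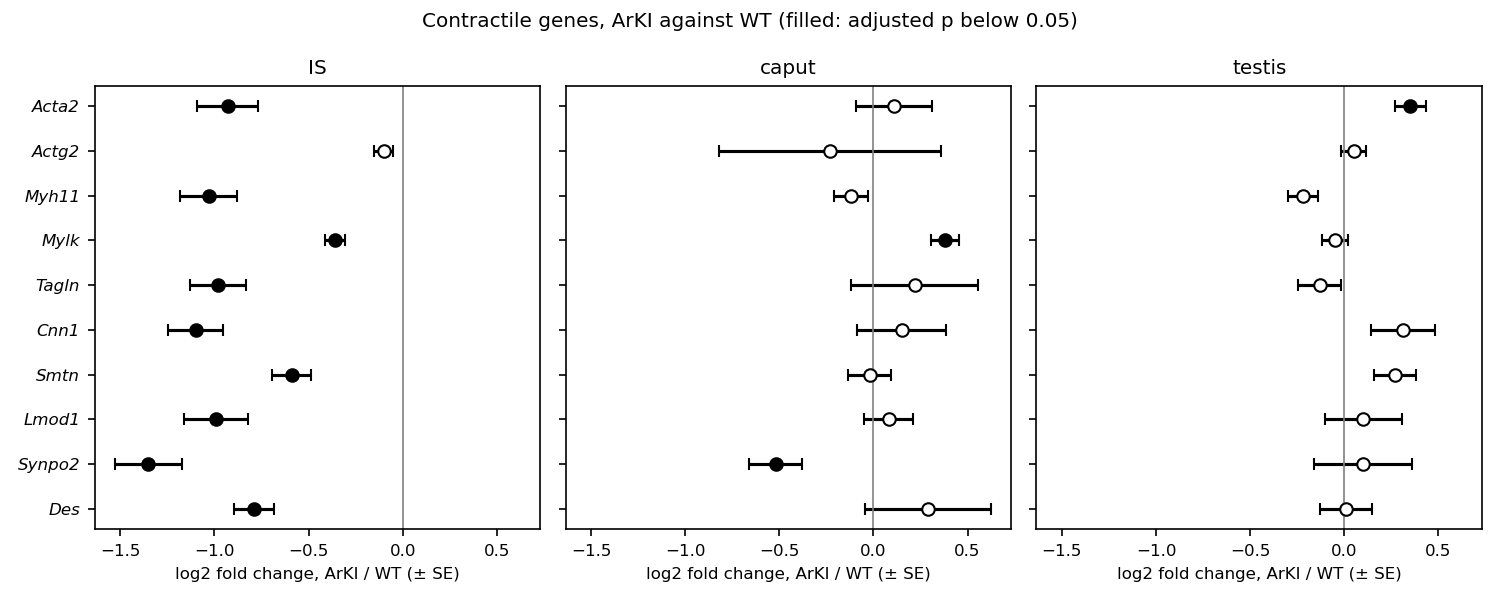
Log2 fold change of ArKI over WT for each of the 10 genes in the IS, the caput and the testis, with SE bars, filled where the adjusted p was below 0.05. In the IS 9 genes are filled and left of 0, in the caput only Mylk (0.38) and Synpo2 (-0.52) are filled, and in the testis only Acta2 (0.35).

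The segments themselves differed in several of these genes. In WT mice the caput was higher than the IS for Myh11 (0.74, SE 0.129, adjusted p = 6.1e-05), Cnn1 (0.68, SE 0.202, adjusted p = 0.0068), Acta2 (0.62, SE 0.185, adjusted p = 0.0068) and Synpo2 (0.47, SE 0.145, adjusted p = 0.0057), and lower for Mylk (-1.12, SE 0.0672, adjusted p = 5.5e-14) and Actg2 (-4.68, SE 0.479, adjusted p = 1.4e-07), the last at 3.89% of its IS level. Tagln, Smtn, Lmod1 and Des did not pass the test, at -0.11 to 0.32. Lmod1 (adjusted p = 0.055) passed in 4 of 15 other fits, with adjusted p values of 0.0058 to 0.13 over them. It passed with upper-quartile factors (0.35, adjusted p = 0.038), with a replicate block (0.33, adjusted p = 0.022), without IS WT replicate 3 (0.47, adjusted p = 0.0058) and without caput WT replicate 2 (0.38, adjusted p = 0.03). These counts of 4 and 2 members stand beside 34.4% of all genes that were higher and 35.0% that were lower in the WT caput. Of the 32 contractile partners 15 were higher and 10 lower. Of the other cell types, 6 of 6 endothelial (median -1.25), 3 of 4 macrophage (-1.12), 4 of 6 principal cell and 4 of 5 ciliated cell genes were lower. Cd68, the other macrophage gene, was higher (0.68, SE 0.169, adjusted p = 0.0012). Of the pericyte genes 3 of 6 were higher and 2 lower (0.43), and all 4 spermatid genes were higher (2.05).

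In ArKI mice all 10 members differed between the segments. The caput was higher for 8, by log2 fold changes of 0.46 (Smtn) to 1.91 (Cnn1), among them Acta2 at 1.65 (SE 0.192, adjusted p = 7.3e-07), Myh11 at 1.64 (SE 0.134, adjusted p = 4.2e-09) and Synpo2 at 1.29 (SE 0.177, adjusted p = 4e-07), where 33.0% of genes were higher and 33.2% lower. Mylk (-0.38, SE 0.0667, adjusted p = 1.8e-05) and Actg2 (-4.81, SE 0.483, adjusted p = 1.2e-07) were lower in the ArKI caput than in the ArKI IS. Of the contractile partners 18 were higher and 8 lower, and of the pericyte genes 3 of 6 were higher and 0 lower (0.90). In the ArKI caput 4 of 6 endothelial (-0.50), 3 of 4 macrophage (-0.40), 4 of 6 principal cell and 5 of 5 ciliated cell genes were lower and all 4 spermatid genes higher (3.45). Cd68 of the macrophage list was again higher (0.73, SE 0.171, adjusted p = 0.00079). The part of these cell types in the members' segment differences was not tested. Which of these segment differences depended on genotype is given by the interaction above.

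In the testis, Acta2 alone among the members passed the test between the genotypes, where 1.64% of the 15838 genes tested rose and 0.328% fell. Acta2 was at 49.3, 48.7 and 48.6 CPM in the 3 WT samples and 71.8, 56.1 and 59.9 CPM in the 3 ArKI samples. The ArKI samples were all above the WT samples, as for 9.36% of the genes tested (8.49% were all below), and the log2 fold change was 0.35 (SE 0.0826, adjusted p = 0.023). The call was lost without WT replicate 1 (0.36, adjusted p = 0.056), without WT replicate 3 (0.35, adjusted p = 0.13) and without ArKI replicate 1 (0.25, adjusted p = 0.13).

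The other 9 members in the testis had log2 differences of -0.22 to 0.31. Myh11 was at 36.6, 34.3 and 37.3 CPM in WT and 30.2, 31.3 and 31.6 in ArKI, without overlap but with an adjusted p of 0.21. Smtn was separated in the other direction, at 10.6, 8.97 and 10.7 CPM in WT and 12.3, 12.9 and 11.2 in ArKI (0.27, SE 0.113, adjusted p = 0.29). Actg2 was at 261, 266 and 279 and 297, 288 and 249 CPM (0.05, SE 0.0674, adjusted p = 0.81). Synpo2 was at 1.14 to 1.42 CPM in WT. Of the 32 contractile partners 2 rose, Cnn2 (0.79) and Pdlim3 (0.78), and none of the 5 non-muscle, 6 pericyte, 6 endothelial or 4 Sertoli cell genes passed. Gucy1a3 (0.65) and Oxtr (0.64) were the receptors that rose. Of the fibroblast genes Col1a1 and Col1a2 rose, as did Lyz2 of the macrophage list, Tnnt2 of the cardiac list and Cyp17a1 of the Leydig cell list, and Gpx5 of the principal cell list fell.

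Between WT tissues, all 10 members had lower levels in testis than in IS samples, where 42.5% of the 16402 genes tested were lower, 49.4% were higher and the median of all genes was 0.19. The log2 differences ran from -1.12 (SE 0.171, adjusted p = 1.5e-06) for Lmod1 to -3.10 (SE 0.523, adjusted p = 0.00016) for Actg2, with Myh11 at -1.96 (SE 0.0600, adjusted p = 9.8e-20). Lists of other cell types were lower too, with 6 of 6 fibroblast genes (median -2.52), 5 of 6 endothelial (-1.99), 4 of 4 macrophage (-1.91) and 4 of 6 pericyte genes (-1.91) called, and their part in the members' levels was not tested. Against the WT caput, 9 members were lower in the testis, with log2 differences of -1.06 (Mylk) to -3.42 (Cnn1), where 43.2% of genes were lower and 48.8% higher. The other cell types moved here as well, with 6 of 6 fibroblast (median -2.39), 6 of 6 pericyte (-1.49), 5 of 6 endothelial (-0.56) and 3 of 4 macrophage genes (-0.71) lower in the testis. Vwf of the endothelial list (1.35, SE 0.106, adjusted p = 1.5e-11) and Emr1 of the macrophage list (0.32) were called higher. The part of these cell types in the members' levels was not tested. As against the IS, Prkg1 (3.43) and Gata6 (4.74) were higher and Tpm2 (-2.45) and Foxo4 (-2.04) lower in the testis. Actg2 was higher in the testis than in the caput, at 1.58 (SE 0.449, adjusted p = 0.0061). The summed CPM of the 9 members other than Actg2, scaled within each tissue, was 193 to 201 in the WT testis, 1059 to 1140.4 in the WT IS and 981 to 1226 in the WT caput.

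As a description of how the members varied among samples of the same group, log2 values were centred on each group's mean over the 20 epididymal samples. Each member was correlated with the mean of the other 9, at r = 0.92 (Tagln), 0.91 (Des), 0.90 (Cnn1), 0.86 (Acta2), 0.74 (Lmod1), 0.69 (Myh11), 0.67 (Smtn), 0.46 (Synpo2), 0.44 (Actg2) and 0.30 (Mylk). Without caput ArKI replicate 2 these values were 0.86 (Tagln), 0.84 (Des), 0.84 (Cnn1), 0.79 (Acta2), 0.72 (Lmod1), 0.65 (Myh11), 0.51 (Smtn), 0.30 (Synpo2), 0.26 (Actg2) and 0.09 (Mylk). Among 13821 genes, the 10 non-members most like the mean of the 10 members were Csrp1 (r = 0.93), Csf2ra (0.88), Myl9 (0.88), Tpm2 (0.88), Loxl2 (0.88), Iigp1 (0.88), Rsad2 (0.88), Figf (0.87), Col14a1 (0.87) and Msn (0.87). Csrp1, Myl9 and Tpm2 belong to the contractile partners. The points share their libraries and depths, and without caput ArKI replicate 2 the values for these 10 genes were 0.75 to 0.87.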

How the data were processed

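The RNA-seq libraries analysed came from 5 mice of each genotype for the IS and caput and from 3 of each for the testis. The authors sequenced 50-base single-end reads, aligned them to mm10 with STAR, counted uniquely mapped reads per RefSeq gene with subread (Subread 1.5.1 in the processing notes) and deposited raw counts for 23337 genes, neither filtered nor normalized. The notes also name bcl2fastq 1.8.4.

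The counts were tested in R 4.3.3 with edgeR 4.0.16. Each tissue was fitted by itself, ArKI against WT, after filterByExpr (minimum count 10, minimum total 15) and TMM scaling, with a robust quasi-likelihood model and Benjamini-Hochberg adjustment over all genes tested. A gene was called at an adjusted p below 0.05, and the thresholds of the study (0.01 in the epididymis, 0.2 in the testis, fold change above 2) were an alternative. The segment contrasts and the interaction were fitted over the 20 epididymal samples, and WT tissues over the 13 WT samples. SE values were taken as the absolute log2 fold change divided by the square root of F. CPM were scaled by TMM within a tissue. RPKM used TMM over all 26 samples and the union of GENCODE M21 exons on GRCm38. limma 3.58.1 and DESeq2 1.42.0 served as alternatives. The study's own ROTS test was not run. The fits were tested on simulated data first.

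The members, the lists (contractile partners, smooth muscle transcription factors, receptors and channels of contraction, non-muscle actin and myosin, and markers of pericytes, fibroblasts, endothelium, skeletal and cardiac muscle, adipocytes, macrophages, basal cells, principal cells, spermatids, Sertoli and Leydig cells) and the tests were chosen with earlier results of these data known. Named were the 10 members, in each comparison of genotypes up to 5 called genes with the largest change per list, and the 10 genes most like the members; genes given beyond this, among them Myl6, Actn1, Srf, Myocd outside the IS and the ciliated and Tecta values, were chosen after their values were seen. Equal replicate numbers are not stated to mark the same mouse or litter. Total counts were 4125768 to 21376604 per library, at which 3 counts correspond to 0.140 to 0.727 CPM. Intervals and SE cover the spread between samples. Values of the mutated gene are not reported here.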

Additional observations from a re-analysis of the deposited data

Results flagged for a closer look

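In Dixon's test at the 95% level, 3 of the 40 sets of 5 samples (10 members in 4 epididymal groups) held a sample far from the others, where chance gives about 2. Caput ArKI replicate 2 was such a sample for Tagln, at 269.7 CPM against 113 in the next sample, and for Des, at 149 CPM against 65.9. IS WT replicate 3 was one for Lmod1, at 15.5 CPM against 11.0 in the next sample. The testis groups, of 3 samples, were not tested.

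The effect of the mutation differed between the segments for 8 members in the interaction test of edgeR, all with a higher value in the caput, where 7.38% of all genes tested were called in that direction and 7.77% in the other. The caput effect minus the IS effect, in log2 units, was 1.03 for Acta2, 0.91 for Myh11, 0.74 for Mylk, 1.17 for Tagln, 1.24 for Cnn1, 0.57 for Smtn, 1.06 for Lmod1 and 0.82 for Synpo2. The call for Tagln was lost in 19 of 28 other fits (adjusted p values of 0.01 to 0.084 over the 28). For Mylk the ArKI samples were below all WT samples in the IS and above all WT samples in the caput.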

How the results depend on the processing

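Across the other scalings, filters and tools and the fits without a sample, 9 members fell in the IS (9 to 9 when a sample was left out), 1 rose and 1 fell in the caput (1 to 1), and 7 to 9 passed in the interaction. The exceptions in the IS were the thresholds of the study (3 fell) and the ciliated covariate, added after the data were seen (2 fell). With the thresholds of the study, 0 members rose and 0 fell in the caput and 0 rose in the testis, and 3 passed in the interaction at an adjusted p below 0.01. Leaving out a testis sample gave 0 to 1 members that rose.

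Signs reversed only for members that did not pass the test, and the cause was not tested. In the caput Smtn (-0.02) was 0.02 with library size only, and was also at or above 0 without WT replicates 1 or 3 or ArKI replicates 3, 4 or 5. Over the fits without a sample, the caput values ran from -0.10 to 0.06 for Smtn, -0.50 to 0.07 for Actg2, -0.08 to 0.23 for Acta2, -0.18 to 0.38 for Tagln, -0.06 to 0.28 for Cnn1 and -0.06 to 0.44 for Des. The reversals of Actg2 came without WT replicates 3 or 4 and those of Acta2, Tagln, Cnn1 and Des without ArKI replicate 2. In the interaction Actg2 ran from -0.42 to 0.16. In the testis Des was 0.00 with limma-voom and -0.09 to 0.09 without a sample (below 0 without WT replicates 2 or 3 or ArKI replicate 3), and Lmod1 was -0.10 to 0.30 (below 0 without WT replicate 3 or ArKI replicate 3).

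Same-numbered samples did not all deviate together (correlations of -0.102 to 0.177 over 5 pairs of groups; for the WT IS and WT caput all 5 were above 0, 3 of 5 were over 0.1 and 3 of 5 samples correlated best with their own number), so the numbers were not taken to pair the samples. With a replicate block, 9 members fell in the IS, 1 rose and 1 fell in the caput, 1 rose in the testis, and 8 passed in the interaction, while 5 in place of 4 members were higher in the WT caput than in the WT IS. The testis held only the WT and ArKI groups, so no separate joint fit of its groups was made. Between WT tissues the median of all genes moved with the scaling, from -0.23 (library size only) or -0.34 (upper quartile) to 0.28 (RLE) for testis against caput, while the directions of the 10 members held.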
